A study of Mus musculus with 4 samples.

Results

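The genes described here encode the machinery that copies DNA: 46 genes of origin licensing, the replicative helicase, the polymerases, the sliding clamp and lagging strand, and the supply of nucleotides. They were chosen by name, not by measured values, though with earlier results of these data known. All 46 were found in the table, each on 1 row, among 22138 genes in all. RNA was measured in TT2, a female line of mouse embryonic stem cells from C57BL/6xCBA embryos, kept feeder-free in medium with serum and LIF. Cells received control siRNA (2 libraries) or Hnrnpk siRNA (2 libraries), first at 100 nM and, 24 hours later, at 50 nM, and were harvested about 72 hours after that. Both groups are the same unmodified line, so the siRNA is the labelled difference between them, and the design text calls the 2 libraries of a group biological replicates. The study concerns hnRNP K, which binds nucleic acids, in silencing with SETDB1, and the comparison asks how these transcripts stood once Hnrnpk was depleted.

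As background, DNA replication starts at origins marked by the origin recognition complex (ORC). ORC, CDC6 and CDT1 load the ring-shaped MCM helicase onto DNA in G1, and CDC45 and GINS switch it on in S phase. Polymerase alpha with primase starts each new strand, polymerase epsilon and polymerase delta extend it, and PCNA, the clamp, holds the polymerase on DNA. Embryonic stem cells divide fast, with a short G1, and spend a large part of their cycle in S phase.

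Levels are given as RPKM, reads scaled to transcript length and library size. A gene was called higher or lower when limma gave a Benjamini-Hochberg adjusted p under 0.05 over 12486 genes, those whose mean over the 4 libraries reached 0.5 RPKM. All 46 replication genes passed that filter in both groups, the lowest being Pola1, with means of 8.96 RPKM in control and 5.82 RPKM in Hnrnpk siRNA cells. Log2 changes are differences of log2(RPKM + 0.5), Hnrnpk siRNA minus control siRNA, which shrinks the change of low genes a little. With 2 libraries a group an exact permutation test of 1 gene cannot give a p below 0.333, so the calls rest on a variance that limma pools over genes.

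Hnrnpk itself had 236 and 226 RPKM against 68.0 and 70.5 RPKM, in the direction of the labels (log2 change -1.73). Total read numbers are unknown. A rough relative depth, from the commonest ratio between low values, was 0.881 to 0.982 in the other libraries with control replicate 1 set to 1, lower in both Hnrnpk siRNA libraries; few genes showed that ratio (71 to 114 of 3188 to 3540). Markers of embryonic stem cells were present, their 10 genes summing to 3935 to 4094 RPKM in the control libraries and 4699 to 5022 RPKM in the Hnrnpk siRNA libraries. Dppa5a alone went from 1320 and 1276 RPKM to 2164 and 2451 RPKM in that sum; of the 10 genes 4 were called lower, Sox2 among them, and 2 higher, Dppa5a and Nanog, with a median log2 change of -0.15. Markers of other embryonic cell types moved with the groups. The 9 primitive endoderm genes summed to 20.99 to 21.84 RPKM in control and 63.1 to 65.0 RPKM in Hnrnpk siRNA libraries, and the 7 trophectoderm genes analysed to 30.5 to 36.0 and 68.5 to 73.1 RPKM. Keratin genes made up most of the trophectoderm sum, Krt18 alone going from 15.8 and 18.9 RPKM to 30.9 and 33.2 RPKM. Of those tested, 6 of 7 endoderm and 5 of 5 trophectoderm genes were called higher, against 32.2% of all genes. Pdgfra, 1 of these endoderm genes, passed the filter only through the Hnrnpk siRNA libraries, with means of 0.170 and 0.898 RPKM. A low gene that rises passes such a filter more easily than one that falls, so these shares are not an even comparison. A trophectoderm gene too low to test had lower values after Hnrnpk siRNA. The 6 two-cell stage genes analysed went from 0.994 to 1.08 RPKM up to 39.4 to 46.1 RPKM, while the 10 fibroblast genes lay at 10.8 to 12.9 and 7.40 to 7.61 RPKM. None of these markers was at 0 in all libraries. Gata6, of the endoderm list, had 0.721 and 0.565 RPKM against 13.7 and 14.1 RPKM. Gata3, of the trophectoderm list, had 0.582 and 0.568 RPKM against 5.32 and 5.28 RPKM. The part of such cells in the results below was not tested.

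The share of replication genes called was near that of all genes, and more were called lower than higher. Tk1 had the lowest log2 change and Orc4 the highest. Of the 46 genes, 22 were called lower, 7 were called higher and 17 were not called. That is 63.0% called, against 67.2% of all genes tested. The lower calls made up 47.8% of the replication genes against 35.0% of all genes, and the higher calls 15.2% against 32.2%. The median log2 change was -0.15, beside -0.015 over all genes tested. At least 2-fold lower was 1 of the 46, Tk1, where 4.52% of all genes were. The groups did not overlap for 27 genes lying below and 13 lying above the control libraries, 40 of 46 in all, where 84.7% of all genes did not overlap. In bulk RNA, fewer cells in S phase and less RNA per cell cannot be told apart.

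**Figure D1:**
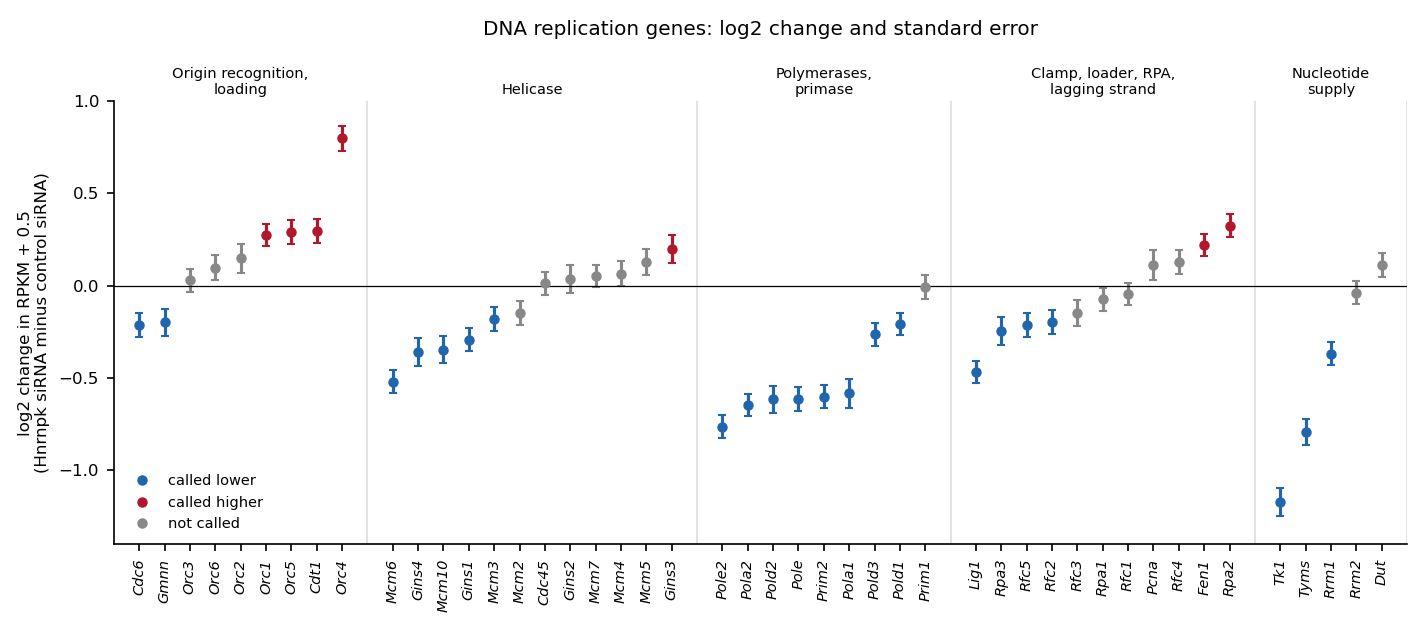
Log2 change in RPKM + 0.5 (points) with its standard error (bars, limma, n = 2 libraries a group) for the 46 genes, ordered within each role and coloured by call. The polymerase and primase genes sit between -0.76 and -0.01, Tk1 is the lowest at -1.17 and Orc4 the highest at 0.80.

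The promoters of a few genes are shown first, because E2F factors, which control many replication genes, bind words that can be looked for in them. RefSeq windows on GRCm38.p6, from 250 bases before to 50 after an annotated start, were matched by symbol for 38 of the 46 genes. The words TTTCCCGC, TTTCGCGC, TTTGCCGC and TTTGGCGC were searched on both strands. They were found for 15 of the 38 genes (39.5%), for 4.9% of the 8756 tested genes with a window and for 2.6% of all 27025 genes with one. The words were present among genes of every outcome. They were in 8 of 16 genes called lower with a window, 3 of 7 called higher and 4 of 15 not called. The 5 windows below contrast 3 genes that fell (Pole2, Mcm6 and Tk1), 1 that was not called (Mcm5) and 1 that rose (Cdt1). The capitals mark the E2F words on either strand.
Pole2, minus strand, chr12:69228141-69228440: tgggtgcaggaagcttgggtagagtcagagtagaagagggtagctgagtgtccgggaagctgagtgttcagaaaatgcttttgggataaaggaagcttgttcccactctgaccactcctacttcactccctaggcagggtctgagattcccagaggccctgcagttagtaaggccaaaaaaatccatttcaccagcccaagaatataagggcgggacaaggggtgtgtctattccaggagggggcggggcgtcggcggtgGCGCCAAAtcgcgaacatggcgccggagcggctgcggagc
Mcm6, minus strand, chr1:128359656-128359955: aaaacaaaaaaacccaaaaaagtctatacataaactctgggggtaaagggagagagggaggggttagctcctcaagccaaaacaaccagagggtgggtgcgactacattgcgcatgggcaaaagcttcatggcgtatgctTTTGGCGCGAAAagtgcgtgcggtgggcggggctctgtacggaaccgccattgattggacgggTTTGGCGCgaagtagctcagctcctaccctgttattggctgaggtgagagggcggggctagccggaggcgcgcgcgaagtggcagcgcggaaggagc
Tk1, minus strand, chr11:117825965-117826264: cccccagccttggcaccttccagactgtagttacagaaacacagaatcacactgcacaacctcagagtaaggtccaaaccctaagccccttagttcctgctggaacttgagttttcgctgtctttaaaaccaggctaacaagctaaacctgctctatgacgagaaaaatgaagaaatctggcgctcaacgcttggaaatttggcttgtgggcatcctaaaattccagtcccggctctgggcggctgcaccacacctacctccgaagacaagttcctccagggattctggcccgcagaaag
Mcm5, plus strand, chr8:75109259-75109558: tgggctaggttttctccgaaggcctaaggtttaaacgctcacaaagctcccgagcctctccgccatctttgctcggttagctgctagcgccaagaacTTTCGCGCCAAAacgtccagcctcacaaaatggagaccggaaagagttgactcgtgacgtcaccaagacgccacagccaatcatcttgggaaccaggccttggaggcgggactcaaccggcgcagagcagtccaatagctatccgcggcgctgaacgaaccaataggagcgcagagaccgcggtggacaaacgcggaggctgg
Cdt1, plus strand, chr8:122567765-122568064: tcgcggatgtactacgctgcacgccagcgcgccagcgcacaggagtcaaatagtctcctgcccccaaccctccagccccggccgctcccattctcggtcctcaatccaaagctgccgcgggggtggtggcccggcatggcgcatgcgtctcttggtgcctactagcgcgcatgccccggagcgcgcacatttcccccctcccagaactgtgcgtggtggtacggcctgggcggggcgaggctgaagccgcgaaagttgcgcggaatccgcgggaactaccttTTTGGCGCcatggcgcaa
Mcm6 held 3 matches, of which 2 overlap as a forward and a reverse word, and Mcm5 held 2 that overlap in the same way. Pole2 and Cdt1 held 1 each, just downstream of the annotated start. The Tk1 window held none of these exact words, which says only that these letters are not in that window. A match is a string of letters and not a measured binding site. The pentamer CCAAT, bound by NF-Y, was in 23 of the 38 genes (60.5%) and 43.7% of the tested genes with a window. TTTGAA or TTCGAA, words of the cell cycle homology region, were in 7 of 38 (18.4%) and in 15.7%.

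**Figure D2:**
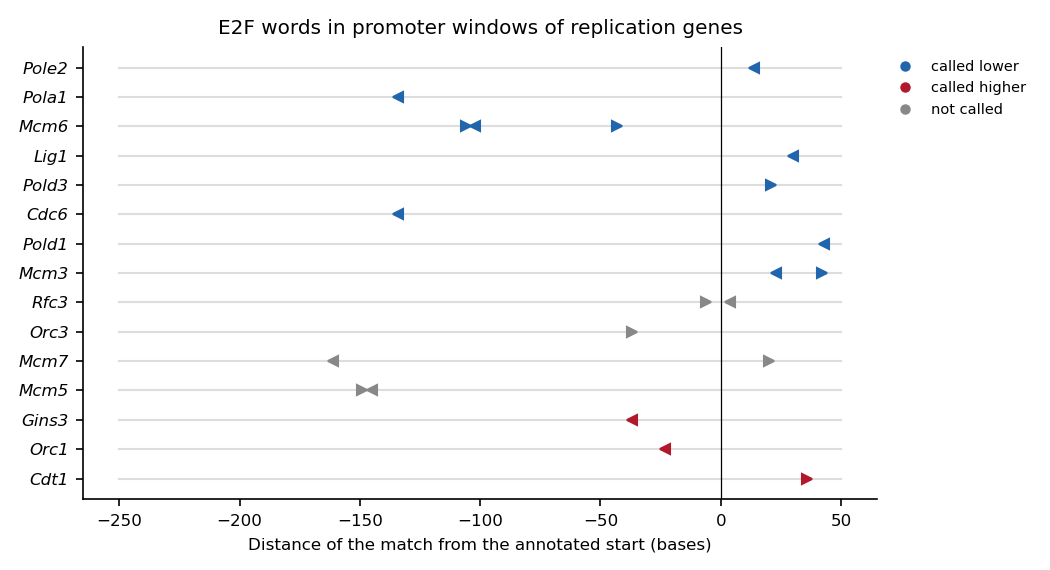
Position of E2F words relative to the annotated start (x axis, bases; the start is at 0) in the 15 replication genes whose windows hold one, from the lowest log2 change at the top to the highest at the bottom. Triangles point in the strand of the word and are coloured by call, and words stand before and after the start among genes of all 3 outcomes.

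Of the 5 roles, the polymerases had the largest share called lower. Of the 9 subunit genes in this role, 8 fell (88.9%) and none rose, with a median log2 change of -0.60. Beside this stand the 35.0% of all genes called lower, the 32.2% called higher and the median of -0.015. The small subunit genes Pole3, Pole4 and Pold4, taken up again in the closing observations, were not in this role but in another list. Pole3 was called higher (log2 change 0.49), and Pole4 and Pold4 were not called (0.09 and 0.08). Summed over the 9 genes, the level was 426 and 409 RPKM in the control libraries and 293 and 296 RPKM in the Hnrnpk siRNA libraries.

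Polymerase alpha with primase lays down the primer. Pola1, the catalytic subunit, lay at 8.73 and 9.20 RPKM in control and 6.11 and 5.53 RPKM in Hnrnpk siRNA libraries (log2 change -0.58, SE 0.0802, adjusted p = 0.000152 by limma). Pola2, its regulatory subunit (GRCm38 chromosome 19, 5940542 to 5964202), had 56.7 and 56.5 RPKM against 35.3 and 36.5 RPKM (log2 change -0.65, SE 0.0605, adjusted p = 1.31e-05). Prim2, the large primase subunit, had 47.9 and 46.2 RPKM against 30.2 and 31.5 RPKM (log2 change -0.60, SE 0.0627, adjusted p = 2.54e-05). For all 3 genes both Hnrnpk siRNA libraries lay below both control libraries, with gaps wider than the spread within either group. Prim1, the small subunit that makes the RNA primer, differed from them. It had 23.95 and 24.97 RPKM in control and 23.6 and 25.2 RPKM in Hnrnpk siRNA libraries, so its groups overlapped (log2 change -0.01, SE 0.0666, adjusted p = 0.933). Relative to the mean of Pola1, Pola2 and Prim2, Prim1 was at 0.634 and 0.670 in control libraries and at 0.987 and 1.03 in Hnrnpk siRNA libraries. That ratio did not overlap between groups, which follows from the values just given and is not separate support. The same holds for the other ratios of a gene to its partners given below.

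Polymerase epsilon is the main leading-strand enzyme. Pole, its catalytic subunit, had 31.1 and 30.9 RPKM in control and 20.5 and 19.7 RPKM in Hnrnpk siRNA libraries (log2 change -0.61, SE 0.0628, adjusted p = 2.28e-05). Pole2, its second subunit (GRCm38 chromosome 12, 69201773 to 69228195), whose promoter is printed above, had 34.5 and 34.1 RPKM against 19.9 and 20.1 RPKM (log2 change -0.76, SE 0.0616, adjusted p = 5.37e-06). Mean RPKM thus fell by 35.2% for Pole and 41.7% for Pole2, and neither gene overlapped between groups.

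Polymerase delta works mainly on the lagging strand. Pold2, an accessory subunit, had 137 and 122 RPKM in control and 85.2 and 83.1 RPKM in Hnrnpk siRNA libraries (log2 change -0.62, SE 0.0717, adjusted p = 5.14e-05). Pold1, the catalytic subunit, had means of 52.0 ± 0.260 and 45.0 ± 0.0599 RPKM (SD, n = 2 each), a log2 change of -0.20 (adjusted p = 0.0122 by limma). Pold3, which binds PCNA, had means of 34.0 ± 0.0992 and 28.2 ± 1.24 RPKM (SD, n = 2 each), a log2 change of -0.26 (adjusted p = 0.00477 by limma). The catalytic subunit thus fell by 13.4% and the accessory subunit Pold2 by 35.0%. The Pold1 call was lost, and its sign turned, when each library's trend on GC content was removed (log2 change 0.014, limma adjusted p = 0.843). It was also lost when Hnrnpk siRNA replicate 1 was left out (limma adjusted p = 0.052).

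**Figure D3:**
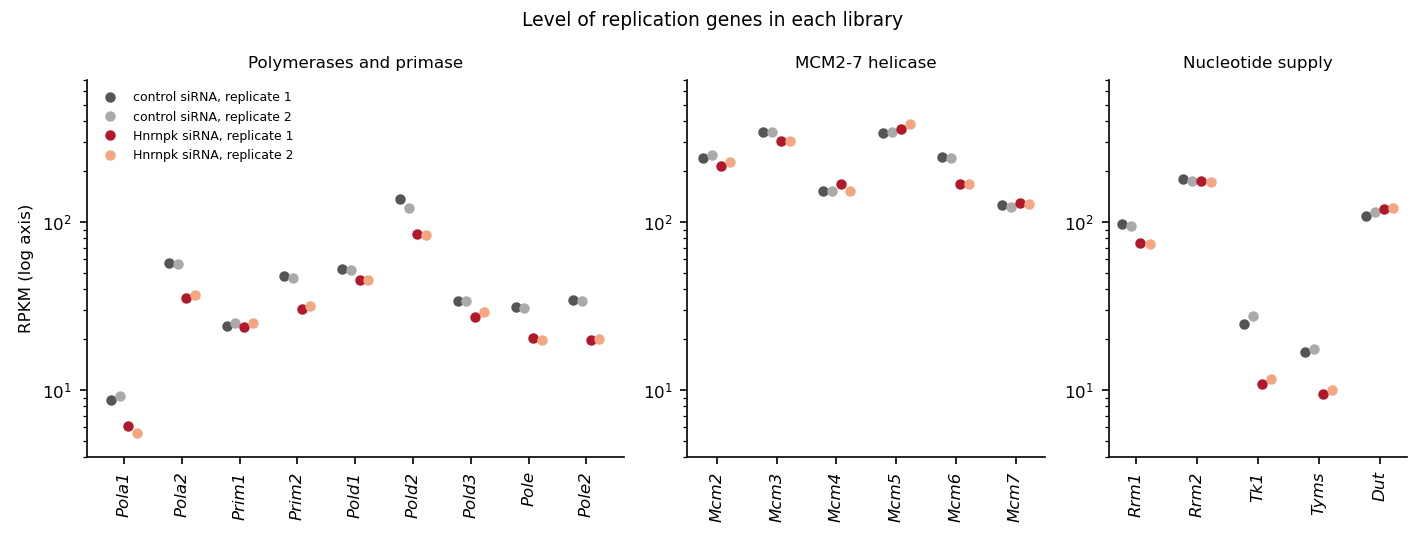
RPKM (log axis) in each of the 4 libraries for the polymerase and primase genes, the MCM helicase genes and the nucleotide supply genes; each point is 1 library. Red and orange points (Hnrnpk siRNA) lie below grey ones (control siRNA) for all polymerase genes shown except Prim1, for Mcm2, Mcm3 and Mcm6, and for Rrm1, Rrm2, Tk1 and Tyms.

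Of the 5 nucleotide supply genes, 3 fell (60.0%, against 35.0% of all genes) and none rose, with a median log2 change of -0.37. Tk1, which salvages thymidine in S phase (GRCm38 chromosome 11, 117815526 to 117826092), showed the deepest fall of the 46 genes. Its level was 24.7 and 27.5 RPKM in control and 10.9 and 11.7 RPKM in Hnrnpk siRNA libraries, a loss of 56.8% (log2 change -1.17, SE 0.0761, adjusted p = 1.51e-06 by limma). Tyms, which makes thymidylate, had 16.8 and 17.5 RPKM against 9.42 and 9.96 RPKM (log2 change -0.79, SE 0.0699, adjusted p = 8.99e-06). So salvage and synthesis of thymidylate were both lower, with no overlap between groups. Rrm1, the large subunit of ribonucleotide reductase, fell, with means of 95.9 ± 1.95 and 74.2 ± 0.955 RPKM (SD, n = 2 each) and a log2 change of -0.37 (adjusted p = 0.000471 by limma). Its partner Rrm2, the small subunit whose level varies over the cell cycle, had 178 ± 2.21 and 173 ± 1.52 RPKM (SD, n = 2 each) and was not called (log2 change -0.04, adjusted p = 0.597 by limma), though under quantile normalization it was called lower. Rrm2 over Rrm1 was 1.85 and 1.87 in control, and 2.33 and 2.34 in Hnrnpk siRNA libraries. Dut, which removes dUTP, had a log2 change of 0.11 and was not called either.

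The MCM helicase genes were among the most abundant of the 46, and Mcm6 stood apart from its partners. Mcm6 (GRCm38 chromosome 1, 128331590 to 128359664) had 242 and 241 RPKM in control and 169 and 168 RPKM in Hnrnpk siRNA libraries (log2 change -0.52, SE 0.0621, limma adjusted p = 6.12e-05). Mcm3 had 343 and 345 RPKM against 303 and 305 RPKM, a smaller fall (log2 change -0.18, SE 0.0649, adjusted p = 0.0317), and its call was lost without any 1 of the 4 libraries, with no filter on low values and with GC trends removed. Its log2 change was -0.186 to -0.175 with 1 library left out, -0.317 under quantile normalization and -0.117 once GC trends were removed. Mcm2 had 240 and 251 RPKM against 216 and 227 RPKM and was not called (log2 change -0.15, adjusted p = 0.0754 by limma), though it was under quantile normalization and with a replicate block. The other three were not called and had values at or above control. Mcm4 had 154 and 153 RPKM against 167 and 154 RPKM. Mcm5 had 336 and 342 RPKM against 359 and 383 RPKM. Mcm7 had 126 and 123 RPKM against 130 and 128 RPKM. Their log2 changes of 0.07, 0.13 and 0.05 turned to -0.04, -0.03 and -0.04 under quantile normalization, and Mcm5 was called higher with GC trends removed. Mcm6 relative to the mean of its 5 partners was 1.01 and 0.993 in control libraries and 0.717 and 0.703 in Hnrnpk siRNA libraries. Since the proteins form a ring with 1 copy of each, this is a shift in transcript proportions within 1 complex, and protein was not measured.

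**Figure D4:**
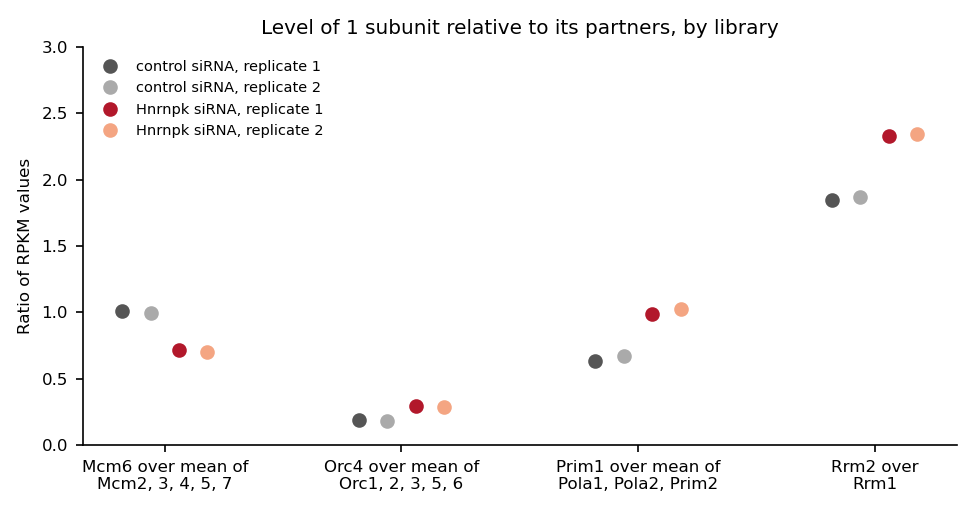
Ratio of RPKM values (y axis, from 0) of 1 subunit over its partners in each library; each point is 1 library. Mcm6 is lower relative to its partners in both Hnrnpk siRNA libraries, and Orc4, Prim1 and Rrm2 are higher relative to theirs.

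The factors that activate the helicase did not share a direction. Of the 12 helicase genes, Mcm6 and Mcm3 included, 5 fell (41.7%, against 35.0% of all genes) and 1 rose (8.3%, against 32.2%), with a median log2 change of -0.07. Mcm10, which helps start unwinding, fell, with means of 32.2 ± 2.55 and 25.2 ± 1.07 RPKM (SD, n = 2 each) and a log2 change of -0.35 (adjusted p = 0.0023 by limma). Among the GINS genes, Gins4 and Gins1 fell (log2 changes -0.36 and -0.29, adjusted p = 0.00239 and 0.00255 by limma). Gins2 was not called, at 0.04. Gins3 was called higher by 0.20 (adjusted p = 0.0402 by limma), a call that was lost without control replicate 1 (0.129), without either Hnrnpk siRNA library (0.21 and 0.192) and with no filter. Cdc45, the helicase cofactor, had 39.0 ± 0.599 and 39.4 ± 0.999 RPKM (SD, n = 2 each; log2 change 0.01, adjusted p = 0.852 by limma). Part of the Gins2 value is uncertain, since 67.3% of its exons overlap Gse1 on the opposite strand and the strandedness of the libraries is not given.

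Among origin recognition and loading genes more rose than fell. Of 9 genes, 4 rose (44.4%, against 32.2% of all genes) and 2 fell (22.2%, against 35.0%), with a median log2 change of 0.15. The share called, 66.7%, was near the 67.2% of all genes. Orc4, an ATP-binding ORC subunit (GRCm38 chromosome 2, 48902824 to 48950277), had the largest rise of the 46 genes. It had 8.99 and 9.53 RPKM in control and 16.3 and 16.6 RPKM in Hnrnpk siRNA libraries (log2 change 0.80, SE 0.0695, limma adjusted p = 8.46e-06). Relative to the mean of the other ORC genes, Orc4 was at 0.185 and 0.182 in control and at 0.295 and 0.289 in Hnrnpk siRNA libraries. It was the lowest ORC transcript in every library. Exons of Acvr2a and Mbd5 on the opposite strand cover 7.8% of its exons.

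Orc1, an ATPase subunit of ORC, had 32.1 and 31.7 RPKM in control and 38.3 and 39.0 RPKM in Hnrnpk siRNA libraries (log2 change 0.27, SE 0.0606, limma adjusted p = 0.00285). Orc5 had 36.5 and 39.6 RPKM against 47.2 and 46.1 RPKM (log2 change 0.29, SE 0.0657, limma adjusted p = 0.00319). Neither gene overlapped between groups. Orc2, Orc3 and Orc6 were not called, with log2 changes of 0.15, 0.03 and 0.10, though Orc2 was called higher without control replicate 2 (0.256) and with a replicate block. No ORC gene was called lower.

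The loading factors diverged. Cdt1, which brings MCM to ORC, had 241 and 239 RPKM in control and 293 and 296 RPKM in Hnrnpk siRNA libraries (log2 change 0.30, SE 0.0638, limma adjusted p = 0.00241). With GC trends removed its log2 change was 0.465. Gmnn encodes geminin, the inhibitor of CDT1. It was called lower, with means of 87.2 ± 0.332 and 76.1 ± 6.94 RPKM (SD, n = 2 each) and a log2 change of -0.20 (adjusted p = 0.0351 by limma). The ratio of Cdt1 to Gmnn was 2.77 and 2.73 in control libraries and 4.11 and 3.66 in Hnrnpk siRNA libraries, with no overlap. The Gmnn call was lost without control replicate 1 (-0.202), control replicate 2 (-0.194) or Hnrnpk siRNA replicate 1 (-0.106) and with no filter. Cdc6 was also called lower, by 0.21 on the log2 scale from 32.2 ± 1.49 to 27.7 ± 0.461 RPKM (SD, n = 2 each; adjusted p = 0.0147 by limma), a call lost without control replicate 2 (-0.168) or Hnrnpk siRNA replicate 2 (-0.198).

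Clamp, clamp loader, single-strand binding and lagging-strand genes showed no common direction. Of 11 genes, 4 fell (36.4%, near the 35.0% of all genes) and 2 rose (18.2%, against 32.2%), with a median log2 change of -0.07. Lig1, the ligase that joins Okazaki fragments, had 77.3 and 76.0 RPKM in control and 55.9 and 54.7 RPKM in Hnrnpk siRNA libraries (log2 change -0.47, SE 0.0598, limma adjusted p = 9.55e-05). Fen1, the nuclease that trims the fragments before ligation, was called higher, with means of 62.6 ± 0.0829 and 73.1 ± 0.323 RPKM (SD, n = 2 each) and a log2 change of 0.22 (adjusted p = 0.00777 by limma). Other genes, Gm10143 and Tmem258, overlap 84.2% of Fen1's exons on the opposite strand, so its level is uncertain. Pcna, the clamp, had 171 and 167 RPKM against 169 and 197 RPKM. The groups overlapped and Pcna was not called (log2 change 0.11, adjusted p = 0.231 by limma), though it was called higher without Hnrnpk siRNA replicate 1 (0.224).

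RPA coats single-stranded DNA, and its subunit genes split. Rpa2, the subunit that is phosphorylated under replication stress, had 56.1 and 55.3 RPKM in control and 68.0 and 72.0 RPKM in Hnrnpk siRNA libraries (log2 change 0.33, SE 0.0623, limma adjusted p = 0.00122). Rpa3, the smallest subunit, was called lower (log2 change -0.25, adjusted p = 0.0144 by limma), a call lost without control replicate 2 (-0.198) or Hnrnpk siRNA replicate 1 (-0.163). Rpa1, the large subunit, was not called at -0.07, and was called lower under quantile normalization. Of the clamp loader genes, Rfc2 and Rfc5 were called lower, by 0.20 and 0.21 on the log2 scale. Both calls were lost without Hnrnpk siRNA replicate 1 (-0.148 and -0.158), and that of Rfc2 also without control replicate 1 (-0.186). Rfc1, Rfc3 and Rfc4 were not called, between -0.15 and 0.13.

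Transcript levels in control cells spanned from 8.96 RPKM for Pola1 to 344 RPKM for Mcm3, with a median of 56.1 RPKM beside 9.29 RPKM over all genes tested. Mcm3 and Mcm5 were the highest after control siRNA, at 344 ± 1.27 and 339 ± 4.17 RPKM (SD, n = 2 each), a gap close to that spread. After Hnrnpk siRNA Mcm5 stood above Mcm3, at 371 ± 16.9 and 304 ± 1.65 RPKM. The 46 genes summed to 3975 and 4021 RPKM in the control libraries and 3707 and 3822 RPKM in the Hnrnpk siRNA libraries. As a share of all RPKM this was 1.11% for each control library, against 0.981% and 0.979% after Hnrnpk siRNA. The sum over all genes was itself higher, at 377825 and 390467 RPKM against 359659 and 362836 RPKM in control. The lower share therefore reflects both sums. Mcm7, Fen1, Gins2, Rfc5 and Pcna share 81.2%, 80.5%, 70.7%, 59.2% and 51.4% of their longest coding transcript with transcripts of other genes at 95% identity or more. The levels of these 5 genes are therefore uncertain, and the other replication genes shared less.

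Other genes of the pathway come from 6 lists that do not include the 46. Over their 66 genes analysed, 28 fell (42.4%, against 35.0% of all genes) and 9 rose (13.6%, against 32.2%), with a median log2 change of -0.14. The share called was 56.1%, below the 67.2% of all genes. Fork protection and checkpoint genes had 6 of 10 lower and none higher, 60.0% called. Atr, the kinase that answers stalled forks, fell from 11.7 and 12.4 RPKM to 4.21 and 3.55 RPKM (log2 change -1.52, SE 0.0903, limma adjusted p = 9.38e-07), a deeper change than in any of the 46. Hus1, part of the checkpoint clamp, Clspn, the mediator claspin, and Wdhd1, which ties polymerase alpha to the helicase, had log2 changes of -0.56, -0.56 and -0.41.

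Further fork factors had 9 of 16 lower (56.2%, against 35.0% of all genes) and 2 higher (12.5%, against 32.2%), and 68.8% called, near the 67.2% of all genes. 2810417H13Rik, now named Pclaf and encoding a PCNA-binding protein, fell, with means of 21.04 and 9.44 RPKM and a log2 change of -1.11 (adjusted p = 1.45e-06 by limma). Top2b, a topoisomerase, Dna2, a nuclease and helicase of Okazaki fragments, and Atad5, which unloads PCNA, had log2 changes of -0.84, -0.65 and -0.61. In replication-coupled chromatin 3 of 9 were lower (33.3%, near the 35.0% of all genes) and 1 higher (11.1%). Nasp, a histone chaperone, and Chaf1b, a subunit of chromatin assembly factor CAF-1, fell by 0.80 and 0.72 on the log2 scale. Supt16h, a subunit of the histone chaperone FACT, fell by 0.30, while Asf1a, which hands histones on, rose by 0.52.

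Among further licensing and firing genes 4 of 11 were lower (36.4%, near the 35.0% of all genes) and 2 higher (18.2%, against 32.2%). Mcm8, a helicase outside the main ring, and Topbp1, a scaffold for firing, fell by 0.83 and 0.46 on the log2 scale. 5730590G19Rik, now named Ticrr and encoding treslin, rose, with means of 40.5 and 69.0 RPKM and a log2 change of 0.76 (adjusted p = 7.91e-06 by limma). Dbf4, the activator of the CDC7 kinase, rose by 0.37. The list of CDT1 destruction had 3 of 6 lower and 1 higher, 66.7% called and near the 67.2% of all genes: the cullin gene Cul4a fell by 0.51, Fbxo31 by 0.48 and Dtl by 0.16, while Cul4b rose by 0.50. Of 14 further nucleotide genes 3 were lower and 3 higher, 21.4% each. Dctd, which feeds thymidylate synthesis, fell, with means of 32.4 and 16.6 RPKM and a log2 change of -0.95 (adjusted p = 1.73e-06 by limma). Tk2, the mitochondrial thymidine kinase, rose by 0.35, Nme2 by 0.31 and Cmpk1 by 0.29. The Dtl call was lost without control replicate 1 (-0.121), Hnrnpk siRNA replicate 1 (-0.198) or Hnrnpk siRNA replicate 2 (-0.128), with no filter and with median-ratio scaling. That of Nme2 was lost without control replicate 1 (0.233) or Hnrnpk siRNA replicate 2 (0.198), with no filter and under quantile normalization (0.08). Cmpk1 stood at 0.174 with GC trends removed.

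**Figure D5:**
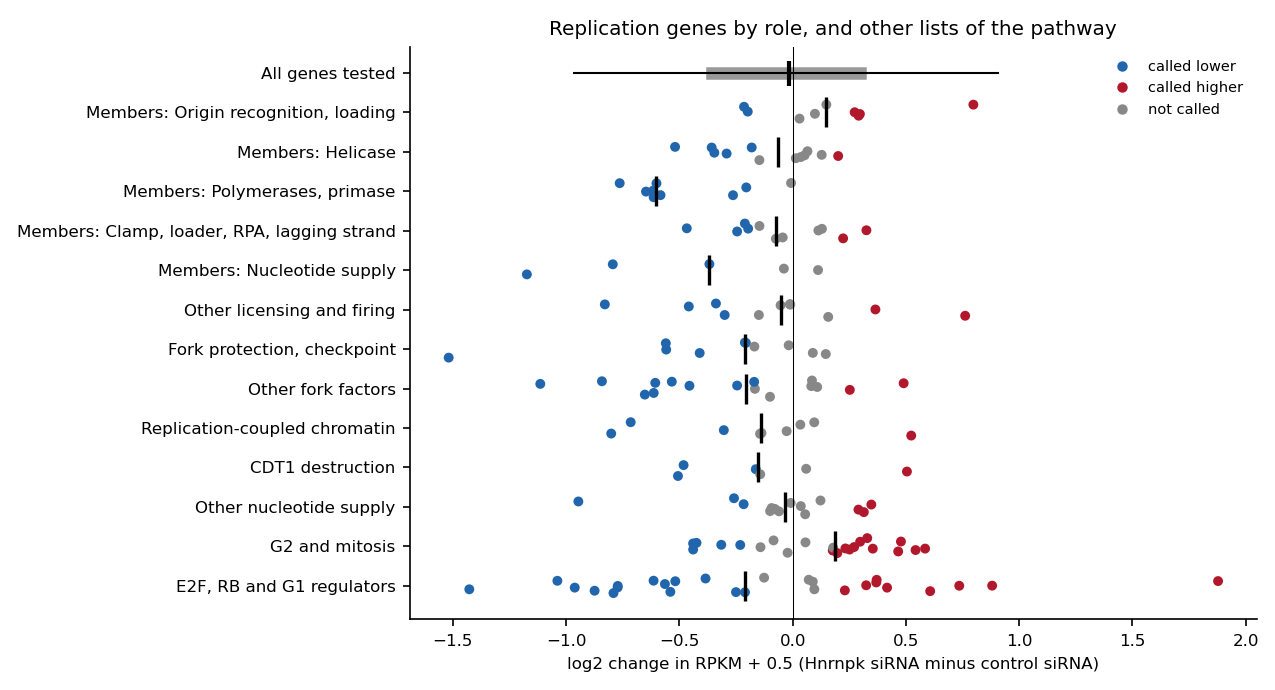
Log2 change in RPKM + 0.5 (x axis) for each gene of the replication genes by role and of the other lists, coloured by call, with black ticks at medians. For all genes tested the thin line spans percentiles 5 to 95 and the thick one 25 to 75. The polymerase median of -0.60 and the nucleotide supply median of -0.37 lie left of the thick bar, which ends at -0.35.

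Among genes of G2 and mitosis more rose than fell. Of 22, 12 were higher (54.5%, against 32.2% of all genes) and 5 lower (22.7%, against 35.0%), with a median log2 change of 0.19. Kif20a, a mitotic kinesin, Cdc20, which activates the anaphase-promoting complex, Ccnf and Birc5 rose by 0.58, 0.54, 0.48 and 0.47. Mki67, the proliferation marker, fell from 52.9 and 51.0 RPKM to 41.0 and 35.6 RPKM (log2 change -0.44, SE 0.0762, limma adjusted p = 0.000662).

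E2F and RB factors and G1 cyclins and inhibitors act on the expression of replication genes, and of 27 such regulators 14 were lower (51.9%, against 35.0% of all genes) and 9 higher (33.3%, near the 32.2% of all genes). E2f1, an activator of S-phase genes, fell from 17.2 and 15.9 RPKM to 10.1 and 11.2 RPKM (log2 change -0.61, SE 0.0769, limma adjusted p = 8.28e-05). E2f4, which often acts with the pocket proteins, fell by 0.38, and Rbl1, which encodes the pocket protein p107, by 1.04. Ccne1, the cyclin that drives entry into S phase, fell by 0.54, Ccnd2 by 1.43 and Mycn by 0.96. The Ccnd2 control libraries differed, at 7.31 and 13.1 RPKM, and its change was -1.83 to -1.03 with 1 library left out. Cdkn1a, the CDK inhibitor p21, rose from 25.6 and 16.2 RPKM to 73.4 and 79.5 RPKM (log2 change 1.88, SE 0.162, limma adjusted p = 7.86e-06). Whether any of these changes bears on the replication genes was not tested.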

How the data were processed

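RNA from 4 libraries was measured by sequencing. The authors deposited 1 table of RPKM values per gene, with a column for each library. Per the submitters' processing notes, BWA, SAMtools and the build mm9 were used; versions, the counter, the annotation and strandedness were not given in the sources used. The labels name both rRNA depletion and poly(A) selection. From the RPKM, log2(RPKM + 0.5) was computed for 12486 genes, whose mean reached 0.5 RPKM. It was tested with limma 3.58.1 in R 4.3.3 (mean-variance trend, two-sided, Benjamini-Hochberg). The procedure was tried on simulated data in which far fewer genes changed than were called here. That trial does not give the error rate of the present calls. Read counts were not used here, since whole reads could not be recovered from the values. The 46 genes, the lists and the alternatives were chosen with earlier results of these data known. Genes outside the 46 were named by rule: up to 4 called genes with the largest change per list, and 5 genes in any case (E2f1, E2f4, Cdkn1a, Ccne1, Mki67); those in the closing observations were chosen after their values were seen. For the 46, values in every library are given for the MCM ring, the 10 largest falls and the 5 largest rises. Positions, GC content and overlaps come from GENCODE M21 (GRCm38), where 20551 of 22138 identifiers were found, not from mm9. Shared sequence was sought with BLAST 2.17.0 over at least 100 bases.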

Additional observations from a re-analysis of the deposited data

How the results depend on the processing

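Across 12 alternatives (added 0.1 or 1 RPKM, no filter on low values or one at a mean of 1 RPKM, median-ratio scaling, quantile normalization, a replicate block, each library left out, and GC trends removed, the last chosen after seeing the data), 21 of the 29 called replication genes kept direction and call. With all 4 libraries kept, the number called ranged from 26 with no filter to 32 under quantile normalization. Over all genes 51.3% and 68.1% were called in those settings. Polymerase genes called lower numbered 7 or 8, where 26% to 35.7% of all genes were lower. The median log2 change of -0.15 moved to -0.207 under quantile normalization and to -0.064 with GC trends removed; the cause was not tested. Without 1 library at a time that median was -0.18 to -0.09, beside -0.03 to 0.002 over all genes tested. The replicate block gave 23 lower and 8 higher, where 35.7% of all genes were lower and 33.3% higher. Same-numbered libraries share only a number (correlation of replicate differences 0.027 over 12486 genes). Of the genes that changed sign, Pold1 was the only one called: Prim1 to 0.002 with median-ratio scaling, Mcm4, Mcm5, Mcm7, Cdc45 and Pcna to -0.037, -0.034, -0.035, -0.028 and -0.014 under quantile normalization, and Orc3 and Pold1 to -0.034 and 0.014 with GC trends removed. Without control replicate 1 Gins2 was -0.011; without control replicate 2 Cdc45 was -0.002 and Prim1 0.023; without Hnrnpk siRNA replicate 1 Prim1 was 0.039; without Hnrnpk siRNA replicate 2 Cdc45 was -0.012 and Gins2 -0.035. Over these 4 omissions Gins2 ranged from -0.035 to 0.107, Prim1 from -0.053 to 0.039 and Cdc45 from -0.012 to 0.039. Where a group keeps 1 library, it is assumed to vary like the other group.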

Other observations

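Some complexes of the wider pathway held subunits with different outcomes; these genes were chosen after their values were seen. Of the small polymerase subunits, Pole3 rose from 22.3 and 24.2 RPKM to 31.6 and 34.1 RPKM (log2 change 0.49, SE 0.0712, limma adjusted p = 0.000217), opposite to Pole and Pole2. Pole4 and Pold4 were not called (log2 changes 0.09 and 0.08). In the ribonuclease that removes RNA from DNA, Rnaseh2a fell by 0.53 on the log2 scale, Rnaseh2b rose by 0.25 and Rnaseh2c, at 0.11, was not called. Rrm2b, a further reductase subunit, had low means of 1.54 RPKM in control and 1.43 RPKM in Hnrnpk siRNA libraries. It was not called (log2 change -0.08, limma adjusted p = 0.453).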
